A study of Mus musculus with 7 samples.

Results

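Chemokine ligands and chemokine receptors were examined in RNA from the sinoatrial node of mice, the tissue at the top of the right atrium where each heartbeat begins. Members were the genes whose symbols begin with Ccl, Cxcl, Ccr, Cxcr, Cx3cl, Cx3cr, Xcl or Xcr followed by a digit and whose row had a completed comparison. This gave 46 genes, 28 ligands and 18 receptors, of 15965 genes with a completed comparison. No minimum level was set, and the 13 members with a mean of both libraries below 1 FPKM are called weak. FPKM is a fragment number scaled to transcript length and to all mapped fragments, so levels can be compared between genes.

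The Cre mice were Baf250a f/f (floxed at Arid1a, the gene of the BAF250a subunit of BAF chromatin remodellers) and carried Hcn4CreERT2. This allele expresses a tamoxifen-activated Cre recombinase where the pacemaker channel gene Hcn4 is active, and RNA was taken 6 days after tamoxifen (the Cre library). The control library of the same day came from Baf250a f/f mice without Cre, and the labels do not say whether these mice were given tamoxifen. All mice were of strain Sv129 and 3 weeks old, and the number and sex of the mice in a library are not stated. The 5 libraries of the earlier time series were not analysed here. Each genotype had 1 library, so differences have no replicate check and the genotypes were not tested against each other. Arid1a had 12.3 FPKM in the Cre library, against 34.9 FPKM in the control library. The part of Cre deletion in this difference was not tested. The libraries also differed widely in markers of other tissues, given below. The 8 pacemaker markers summed to 29.6 FPKM in the Cre library and 22.4 FPKM in the control library, with Hcn4 itself at 0.719 FPKM in the Cre library and 0.605 FPKM in the control library.

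Chemokines are small secreted proteins that guide migrating cells. They are sorted into CC, CXC, CX3C and XC subfamilies by the spacing of their first cysteines, and most signal through receptors of the same subfamily that couple to inhibitory G proteins. Homeostatic ligands such as Cxcl12, Ccl25 and Cxcl13 place lymphocytes in bone marrow, thymus and lymphoid tissue, while inflammatory ligands are induced by cytokines and call in monocytes, neutrophils and effector lymphocytes. In the heart, resident macrophages, fibroblasts and endothelium make several ligands, and monocytes enter through Ccr2.

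The promoters of 5 members are shown as examples of genes that differed between the libraries, Cxcl10 among them for the interferon-induced ligands. They are RefSeq sequences of GRCm38.p6, 250 bases before to 50 bases after the annotated start, 5′ to 3′ on the gene's strand. Promoters were found for 32 of the 46 members. Capitals mark matches on either strand to 5 motifs: GGGA, any base, then TTTCC for NF-kB, GAAA, any 2 bases, then GAAA for the interferon response element (ISRE), TGTGGT for RUNX factors, CTTTGAA for TCF factors and TNAAGTG for Nkx2-5. No 2 matches in a member promoter overlapped.
Ccl25 (first start, chr8:4324960-4325259, plus strand): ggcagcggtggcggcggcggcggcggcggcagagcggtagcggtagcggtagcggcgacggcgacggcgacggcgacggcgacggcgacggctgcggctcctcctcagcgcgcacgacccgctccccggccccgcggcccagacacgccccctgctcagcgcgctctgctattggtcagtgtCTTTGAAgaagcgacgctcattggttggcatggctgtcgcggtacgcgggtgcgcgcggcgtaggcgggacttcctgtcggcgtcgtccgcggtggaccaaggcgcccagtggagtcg
Ccr9 (chr9:123766961-123767260, plus strand): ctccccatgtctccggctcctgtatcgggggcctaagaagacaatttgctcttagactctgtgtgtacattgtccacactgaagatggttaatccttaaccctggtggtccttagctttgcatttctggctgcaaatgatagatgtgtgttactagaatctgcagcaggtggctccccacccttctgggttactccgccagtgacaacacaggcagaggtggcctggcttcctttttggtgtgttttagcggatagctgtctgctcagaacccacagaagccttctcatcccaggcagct
Ccr4 (chr9:114496495-114496794, minus strand): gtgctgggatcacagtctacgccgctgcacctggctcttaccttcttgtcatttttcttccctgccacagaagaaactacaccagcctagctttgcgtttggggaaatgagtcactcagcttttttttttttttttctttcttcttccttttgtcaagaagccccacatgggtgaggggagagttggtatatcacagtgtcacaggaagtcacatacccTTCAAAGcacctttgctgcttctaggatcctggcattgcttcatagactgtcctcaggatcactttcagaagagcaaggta
Cxcl15 (chr5:90794284-90794583, plus strand): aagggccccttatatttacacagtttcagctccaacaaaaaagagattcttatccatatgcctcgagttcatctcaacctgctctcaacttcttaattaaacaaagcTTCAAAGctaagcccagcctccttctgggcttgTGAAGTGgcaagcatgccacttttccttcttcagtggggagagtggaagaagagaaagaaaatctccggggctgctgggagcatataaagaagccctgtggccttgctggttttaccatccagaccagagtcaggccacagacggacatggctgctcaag
Cxcl10 (chr5:92348840-92349139, minus strand): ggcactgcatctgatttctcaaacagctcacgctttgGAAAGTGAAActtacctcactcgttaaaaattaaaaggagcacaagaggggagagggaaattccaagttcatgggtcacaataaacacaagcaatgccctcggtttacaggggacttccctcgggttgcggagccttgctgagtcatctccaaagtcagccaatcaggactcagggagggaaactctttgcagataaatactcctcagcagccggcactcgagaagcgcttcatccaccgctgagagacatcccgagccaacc

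The Ccl25 window shown holds a TCF match whose first base lies 68 bases before the start, and the Ccr4 window holds one 31 bases before it. A second annotated start of Ccl25, not shown, has no TCF match and an Nkx2-5 match 190 bases before it. The Cxcl15 window has a TCF match 143 bases and an Nkx2-5 match 110 bases before the start, and the Cxcl10 window an ISRE match 213 bases before it. The Ccr9 window holds none of the 5 motifs. Nor do the windows of Cxcr4 and Ccl22, which are not shown although both genes differed more than Ccr4, Cxcl15 and Cxcl10. Over all 32 members with a promoter, 6 held a TCF match (5.14% of 32851 promoters of this length in the table), 5 an Nkx2-5 match (11.5%), 9 a RUNX match (16.8%), 2 an ISRE match (3.44%) and 2 an NF-kB match (0.411%). A member was counted if any of its promoters held a match, while the percentages are of single promoters, so the units differ. These are letter matches and not binding sites.

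The receptors Ccr9, Cxcr4, Ccr4 and Ccr7 and the ligands Ccl25, Ccl22, Ccl5 and Cxcl10 were at least 4-fold lower in the Cre library, the epithelial ligands Cxcl17 and Cxcl15 were higher, and none of the 8 monocyte and eosinophil ligands differed 2-fold. The size rule for higher or lower was a difference of 2-fold or more on the FPKM + 1 scale, a log2 ratio of Cre over control of at least 1 in size. Of 28 ligands, 2 were higher (7.14%) and 4 were lower (14.3%), beside 5.23% of 15936 genes higher and 8.96% lower. The share of ligands that were higher lies near that background. Of 18 receptors, 0 were higher and 5 were lower (27.8%). A gene with a control value of 1 FPKM or less cannot be 2-fold lower on this scale, which holds for 16 members. Nor can one with a Cre value of 1 FPKM or less be 2-fold higher. That holds for 21 members, most of the receptors among them. In all, 35 members passed the size rule in neither direction. The 11 that passed all had a mean of 1 FPKM or more, a level at which 6.08% of genes were higher and 10.4% lower. With the ratios centred on fibroblast, endothelial and adipocyte markers, 2 ligands were higher and 7 lower, beside 2.10% of all genes higher and 18.9% lower under the same centring. The median log2 ratio was -0.10 for ligands (0.06 after upper-quartile scaling), -0.31 for receptors and -0.02 for all genes. The upper-quartile scaling moved the median of all genes by 0.17 and the tissue-marker centring by -0.40, and 16 members near equal expression changed sign under one of these.

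**Figure D1:**
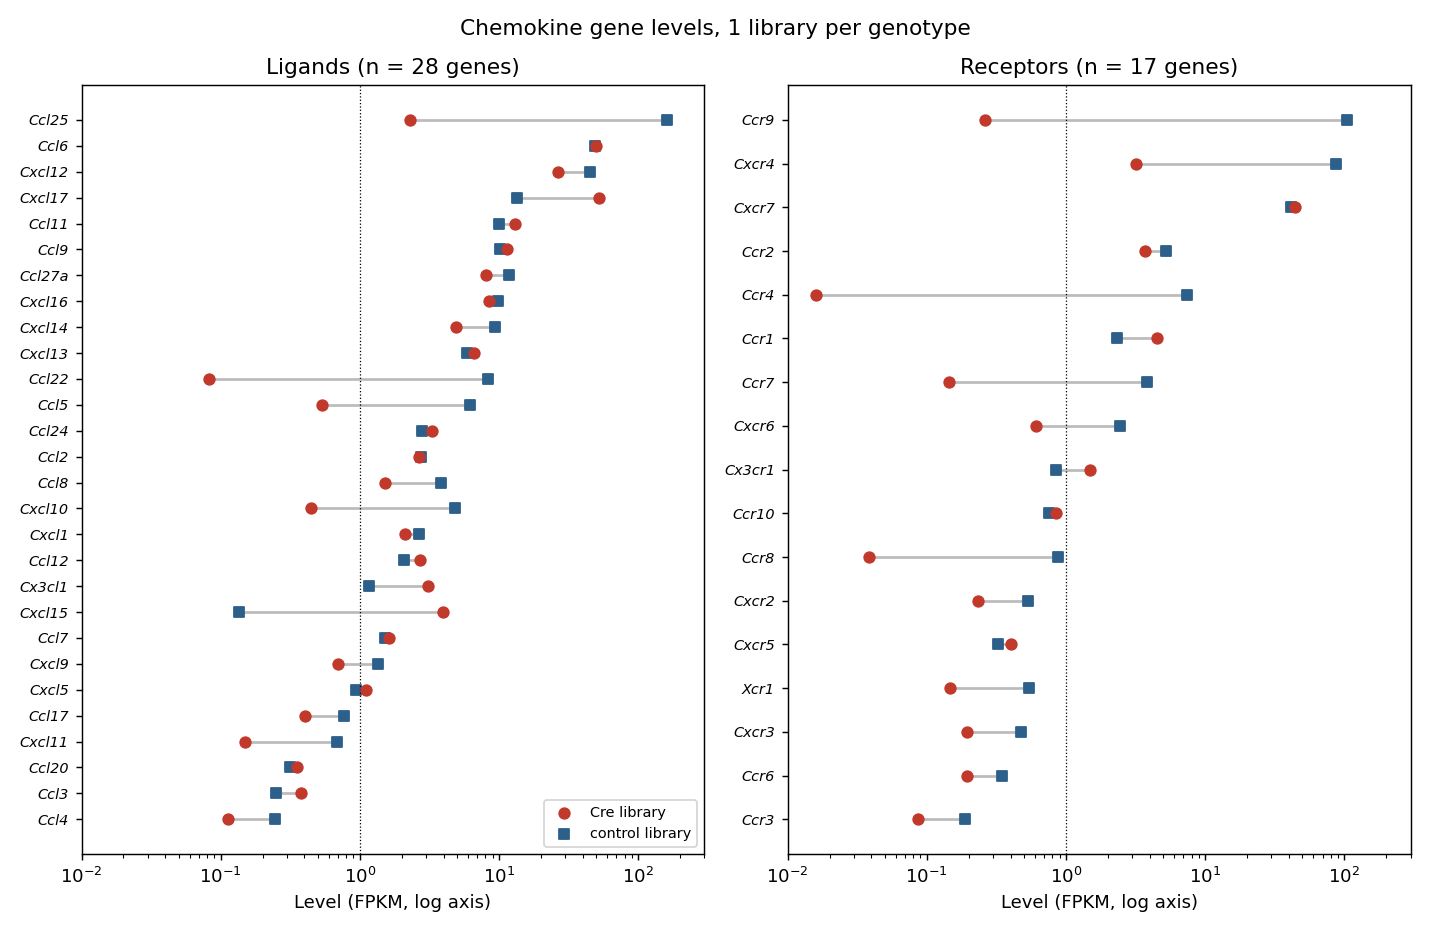
Levels of the 28 ligands (left panel) and 17 of the 18 receptors (right panel) in FPKM on a log axis, with circles for the Cre library and squares for the control library, 1 library each; the dotted line marks 1 FPKM. Ccl25, Ccr9 and Cxcr4 are the highest members of the control library, while Cxcl17, Ccl6 and Cxcr7 are the highest of the Cre library.

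**Figure D2:**
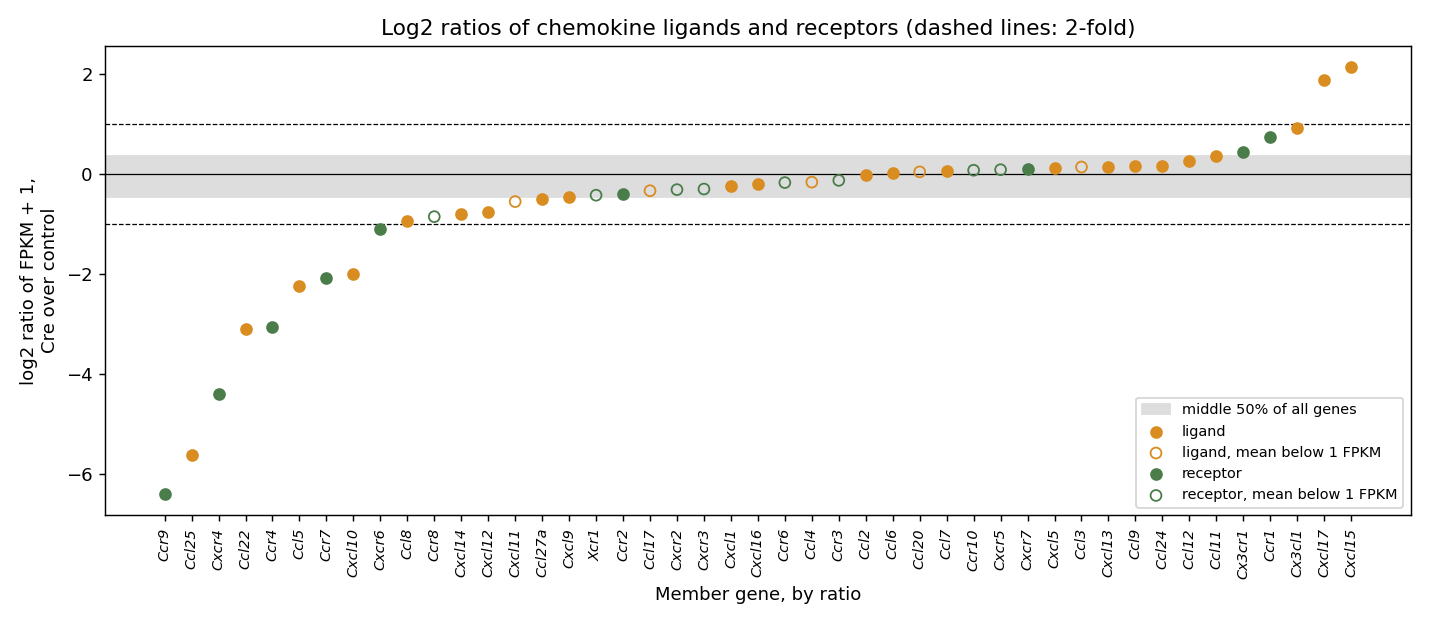
Log2 ratios of FPKM + 1, Cre over control, for 45 of the 46 members in order of ratio; open symbols are weak members, dashed lines mark 2-fold and the grey band is the middle 50% of all genes (-0.45 to 0.36). The ratios run from -6.39 for Ccr9 to 2.13 for Cxcl15.

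Among ligands that place lymphocytes in thymus and lymphoid organs, 2 of 5 were lower. Ccl25 (NM_009138, mm9 chr8:4325209-4360020), made by thymic epithelium and small intestine, had 2.29 FPKM in the Cre library, against 160.5 FPKM in the control library. Its log2 ratio was -5.62, a 49.2-fold lower level on the FPKM + 1 scale. It was the highest of all members in the control library, above 97.1% of genes there, and stood above 27.0% of genes in the Cre library. Ccl25 alone made up 1.10% of the summed ligand FPKM in the Cre library and 43.8% in the control library. The other 27 ligands summed to 206.3 FPKM in the Cre library and 205.97 FPKM in the control library. These near-equal sums hide differences in both directions, with 2 of the 27 higher and 3 lower. Cxcl17 alone had 52.3 FPKM in the Cre library and 13.5 FPKM in the control library.

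Ccl22, made by dendritic cells and macrophages as a ligand of Ccr4, had 0.0823 FPKM in the Cre library and 8.29 FPKM in the control library (log2 ratio -3.10). The other Ccr4 ligand, Ccl17, was weak, with 0.406 FPKM in the Cre library and 0.774 FPKM in the control library. Cxcl12, which holds blood progenitors in the marrow and is also made by cardiac stroma and endothelium, had 26.4 FPKM in the Cre library and 45.1 FPKM in the control library. Its log2 ratio of -0.75 did not pass the size rule. Cxcl13, which draws B cells into follicles, had 6.61 FPKM in the Cre library and 5.90 FPKM in the control library.

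The 5 epithelial ligands included both genes that were higher in the Cre library. Cxcl17, a mucosal chemokine of the airway (NM_153576, mm9 chr7:26164545-26351436), had 52.3 FPKM in the Cre library and 13.5 FPKM in the control library (log2 ratio 1.88). It was the highest member of the Cre library, and its locus in the table is shared with Lipe and Ceacam1, so its value may include their reads. Cxcl15, named lungkine for its expression in mouse lung epithelium (NM_011339, mm9 chr5:91223559-91232093), had 3.98 FPKM in the Cre library and 0.136 FPKM in the control library (log2 ratio 2.13). It was the lowest of the 46 members in the control library and the 12th in the Cre library. Cxcl14 had 4.95 FPKM in the Cre library and 9.34 FPKM in the control library (log2 ratio -0.80). Ccl27a, a skin chemokine with a close copy in the genome and a locus shared with Il11ra1, had 8.06 FPKM in the Cre library and 11.8 FPKM in the control library. Ccl20, the ligand of Ccr6, was weak, with 0.354 FPKM in the Cre library and 0.316 FPKM in the control library.

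None of the 8 ligands of monocytes and eosinophils passed the size rule, and their levels summed to 86.1 FPKM in the Cre library and 82.6 FPKM in the control library. Ccl6, a mouse chemokine of macrophages and other myeloid cells, was the strongest, with 49.7 FPKM in the Cre library and 49.3 FPKM in the control library. Ccl9, its neighbour of similar function, had 11.5 FPKM in the Cre library and 10.2 FPKM in the control library. The eotaxins Ccl11 and Ccl24, which attract eosinophils, had 13.1 and 3.29 FPKM in the Cre library, and 10.03 and 2.82 FPKM in the control library. The monocyte ligands Ccl2, Ccl7 and Ccl12 had 2.66, 1.62 and 2.70 FPKM in the Cre library, and 2.74, 1.52 and 2.09 FPKM in the control library. Ccl8, which in mice acts through Ccr8, stood apart from its neighbours, with 1.52 FPKM in the Cre library and 3.86 FPKM in the control library. Its log2 ratio of -0.95 was just short of the size rule.

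Of the inflammatory ligands of lymphocytes and macrophages, Ccl5 was lower and the other two were weak. Ccl5, made by T cells and natural killer cells, had 0.534 FPKM in the Cre library and 6.23 FPKM in the control library (log2 ratio -2.24). Ccl3 had 0.378 FPKM in the Cre library and 0.252 FPKM in the control library, and Ccl4 had 0.113 FPKM in the Cre library and 0.247 FPKM in the control library. Both were first described as macrophage inflammatory proteins.

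The interferon-induced ligands Cxcl9, Cxcl10 and Cxcl11 all signal through Cxcr3, and 1 of 3 was lower. Cxcl10 had 0.449 FPKM in the Cre library and 4.82 FPKM in the control library (log2 ratio -2.01). Cxcl9 had 0.703 FPKM in the Cre library and 1.35 FPKM in the control library. The weak Cxcl11 had 0.149 FPKM in the Cre library and 0.684 FPKM in the control library. Cxcl10 and Cxcl11 share a locus in the table with Art3, which had 267 FPKM in the Cre library and 188 FPKM in the control library, so their values rest on how reads were divided among these genes.

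Neutrophil and membrane-anchored ligands did not pass the size rule. Cxcl1 and Cxcl5, ligands of Cxcr2, had 2.12 and 1.11 FPKM in the Cre library, and 2.69 and 0.940 FPKM in the control library. Cx3cl1, the membrane-anchored fractalkine of endothelium and neurons, had 3.10 FPKM in the Cre library and 1.17 FPKM in the control library. Its log2 ratio of 0.92 was just short of the rule, which it passed with the same upper quartile (1.10). Cxcl16, the anchored ligand of Cxcr6, had 8.44 FPKM in the Cre library and 9.82 FPKM in the control library.

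Receptors of lymphocytes held all 5 receptors that were lower, of 10 in that group. Ccr9 (NM_001166625, mm9 chr9:123676328-123692575), the receptor of Ccl25 on thymocytes and gut-homing lymphocytes, had 0.262 FPKM in the Cre library, against 104.96 FPKM in the control library. Its log2 ratio of -6.39 was the lowest of the 46 members. Cxcr4 (NM_009911, mm9 chr1:130484775-130488876), the receptor of Cxcl12 on thymocytes and many other blood cells, had 3.21 FPKM in the Cre library and 87.3 FPKM in the control library (log2 ratio -4.39). Ccr9 and Cxcr4 made up 0.420% and 5.15% of the summed receptor FPKM in the Cre library, and 40.1% and 33.4% in the control library.

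Ccr4, carried by helper T cells and regulatory T cells, had 0.0161 FPKM in the Cre library and 7.42 FPKM in the control library (log2 ratio -3.05). Ccr7, which leads lymphocytes into lymph nodes and the thymic medulla, had 0.143 FPKM in the Cre library and 3.82 FPKM in the control library (log2 ratio -2.08). Its ligands Ccl19 and Ccl21a were not analysed here. Cxcr6, found on activated T cells and natural killer T cells, had 0.607 FPKM in the Cre library and 2.47 FPKM in the control library (log2 ratio -1.11), and shares a locus with Fyco1. The other 5 receptors of this group were weak. Among them Ccr8 had 0.0387 FPKM in the Cre library and 0.876 FPKM in the control library, while Ccr6, Ccr10, Cxcr3 and Cxcr5 lay between 0.195 and 0.847 FPKM in the Cre library and between 0.325 and 0.755 FPKM in the control library.

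None of the 7 receptors of myeloid cells passed the size rule. Ccr2, by which monocytes leave the marrow and enter tissue, had 3.70 FPKM in the Cre library and 5.24 FPKM in the control library. Ccr1, a receptor of Ccl6 and Ccl9, had 4.51 FPKM in the Cre library and 2.32 FPKM in the control library (log2 ratio 0.73). Cx3cr1, the fractalkine receptor of monocytes and resident macrophages, had 1.496 FPKM in the Cre library and 0.854 FPKM in the control library. The weak receptors Ccr3, Cxcr2 and Xcr1 lay between 0.0866 and 0.235 FPKM in the Cre library, and between 0.188 and 0.540 FPKM in the control library. All of these values are under 1 FPKM, so these weak receptors could not pass the rule in either direction. Nor could Cx3cr1 be called lower, given its control value.

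Cxcr7, also called Ackr3, is an atypical receptor that takes up Cxcl12 without G protein signalling. It had 44.5 FPKM in the Cre library and 41.3 FPKM in the control library (NM_007722, mm9 chr1:92100577-92112863). This made it 71.3% of the summed receptor FPKM in the Cre library and 15.8% in the control library, at nearly the same level of its own. Cxcr4, the signalling receptor of the same ligand, thus stood at 3.21 FPKM beside 44.5 FPKM of Cxcr7 in the Cre library, and at 87.3 FPKM beside 41.3 FPKM in the control library.

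Ligands were set beside their receptors in 31 textbook pairs of 25 ligands and 16 receptors. In 2 pairs both genes were lower, Ccl25 with Ccr9 and Ccl22 with Ccr4. In 7 pairs 1 gene was lower and its partner passed in neither direction. These included Cxcl12 with Cxcr4 and Cxcl16 with Cxcr6, where the receptor was lower, and Ccl5 with Ccr1 and Ccr3, where the ligand was lower. In 22 pairs neither gene passed the size rule. No pair could have both genes higher, because Cxcl17 and Cxcl15 are in no pair and no receptor was higher. Only 14 of the 31 pairs had both genes at a mean of at least 1 FPKM. No weak member passed the rule, and none could, as all lay under 1 FPKM in both libraries. Pairs share genes and both libraries, so they are not independent of each other.

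**Figure D3:**
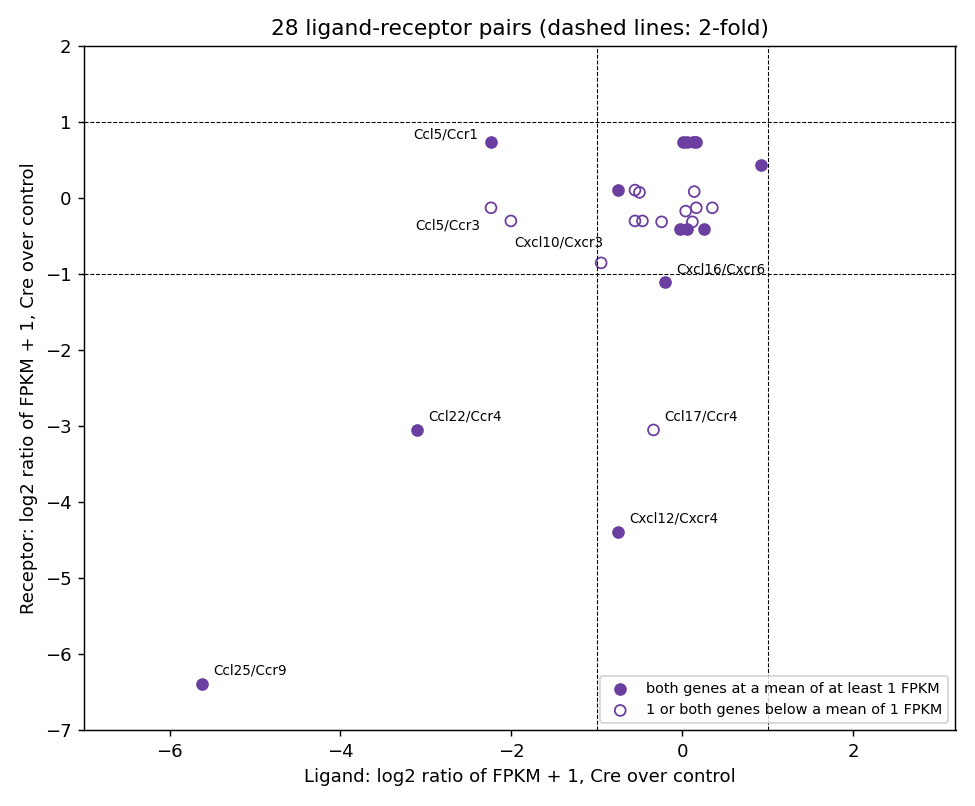
Log2 ratios of FPKM + 1, Cre over control, of the ligand (horizontal axis) and the receptor (vertical axis) in 28 of the 31 pairs; open symbols are pairs with a weak gene and dashed lines mark 2-fold. Ccl25 with Ccr9 lies farthest to the lower left, at -5.62 and -6.39.

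Chemokine genes lie in groups on the chromosomes, and 28 of the 46 members fell into 7 groups in which neighbours lay within 500 kb of each other. No group held genes past the size rule in both directions. Only the group that begins with Ccr9 held as many as 2 such genes, so no other group could have shown both directions. Within the 7 receptor genes on chromosome 9 that begin with Ccr9, Ccr9 and Cxcr6 at one end were lower. Ccr1, which starts 200.6 kb from the start of Ccr9, had a ratio of 0.73, and Ccr2, 341 kb away, had -0.41. On chromosome 8, Ccl22 at -3.10 lies beside Cx3cl1 at 0.92 and Ccl17 at -0.34, all within 66.4 kb. On chromosome 5, Cxcl15 at 2.13 lies between Cxcl5 at 0.12 and Cxcl1 at -0.24. The 5 genes from Ccl2 to Ccl8 on chromosome 11 ran from -0.95 to 0.35, and in the next group Ccl5 was lower while Ccl9, Ccl6, Ccl3 and Ccl4 were not.

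**Figure D4:**
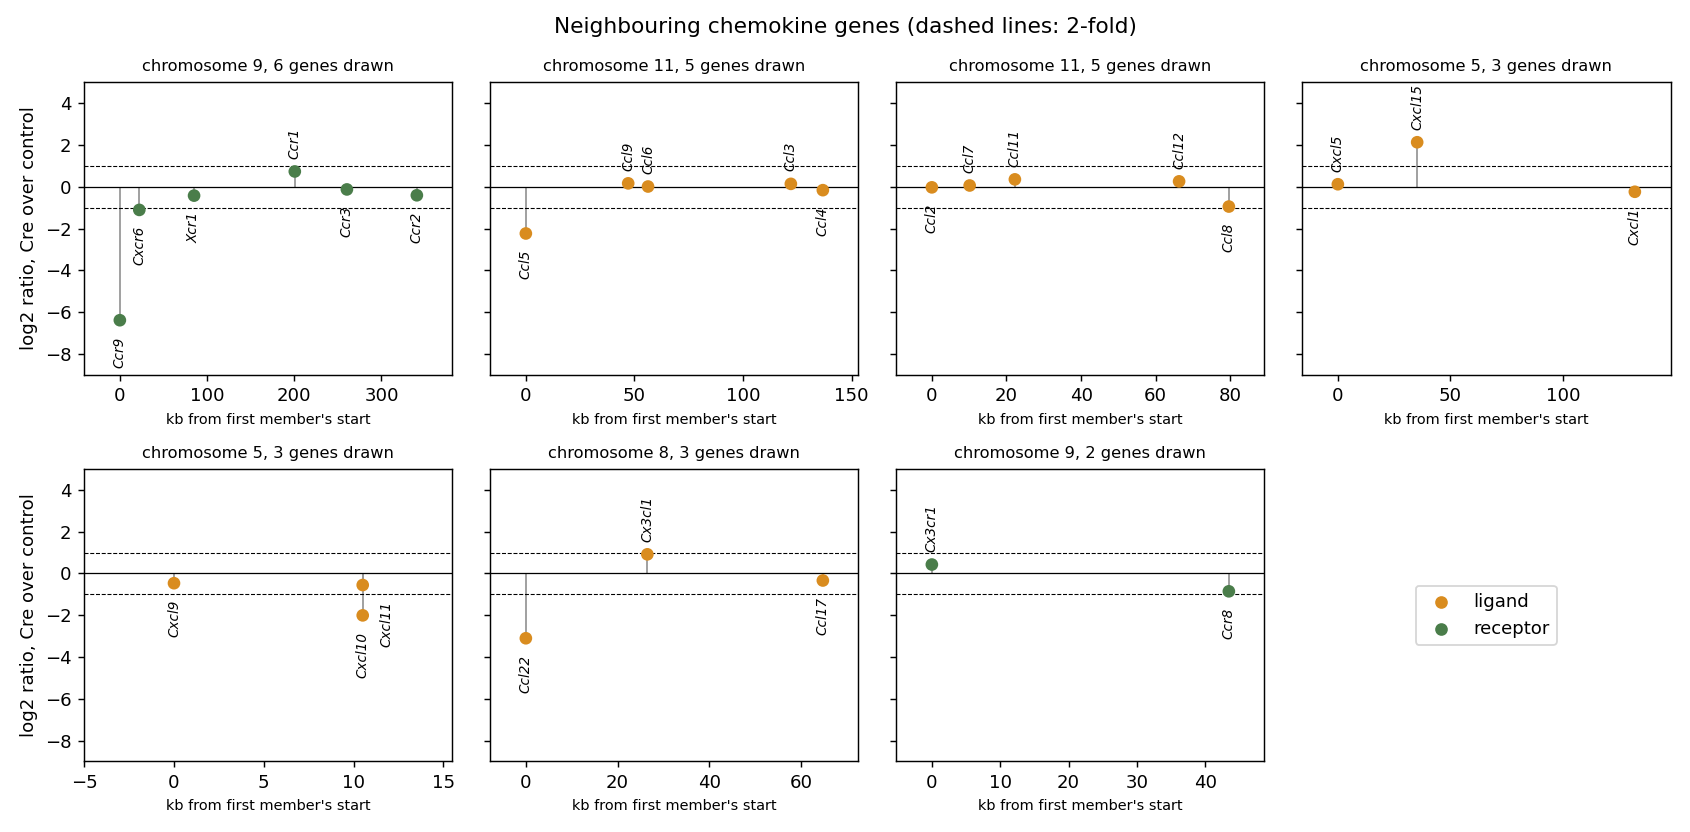
Log2 ratios of FPKM + 1, Cre over control, of 27 of the 28 members in 7 chromosomal groups, against the distance in kb from the start of the first member in the group; colours separate ligands and receptors and dashed lines mark 2-fold. Single genes such as Ccr9, Ccl5, Ccl22 and Cxcl15 stand away from their neighbours, and Cxcl10 and Cxcl11 share 1 locus.

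The authors' deposited table called 3 of the 46 members significant, all 3 lower in the Cre library, where 0.552% of all genes were called lower and 0.0126% higher. In the authors' deposited table Ccl25 and Ccr9 each had p = 5e-05 (q-value 0.0149), and Cxcr4 had a q-value of 0.0378. A p-value under 0.05 without a call was given in the authors' deposited table to Ccr7 (q-value 0.277), Cxcl15 (0.264), Ccl5 (0.574) and Ccl22 (0.604). Ccr4, whose untransformed log2 fold change of -8.85 in the authors' deposited table is the lowest of the members, had a p-value of 0.15 there, and Cxcl17 had 0.554. Cxcl10 and Cxcr6, which passed the size rule as lower, had p-values of 0.397 and 0.577 in the authors' deposited table. These p-values compare 2 libraries and not the genotypes.

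Markers of other tissues moved with these members. All 17 markers of T cells and thymocytes were lower, and they summed to 8.97 FPKM in the Cre library and 3097 FPKM in the control library, with single genes between 0.0116 and 1.41 FPKM in the Cre library and between 9.88 and 436 FPKM in the control library. No marker was listed at 0. Rag1, part of the recombinase of developing T and B cells, had 0.832 FPKM in the Cre library and 436 FPKM in the control library. Of 13 thymic epithelium markers 9 were lower, and the list summed to 353 FPKM in the Cre library and 1179 FPKM in the control library, with single genes between 0.00596 and 272.6 FPKM in the Cre library and between 1.24 and 676 FPKM in the control library. Krt5, Krt8, Epcam, Ctsl, Cd83 and Dll4 of that list are also expressed by other cells. Its more specific gene Prss16 had 0.381 FPKM in the Cre library and 198 FPKM in the control library, and Psmb11 had 0.0316 FPKM in the Cre library and 8.93 FPKM in the control library. All 10 cell cycle genes were lower (median -4.07). Of the markers of natural killer cells, 1 of 7 was lower, Gzma, at 0.238 FPKM in the Cre library and 39.1 FPKM in the control library, which T cells also express. Gzma was also the only marker of that list with a mean of at least 1 FPKM. The part of thymic cells in the lower values of Ccl25, Ccr9, Cxcr4, Ccr4 and Ccr7 was not tested. In bulk RNA, fewer cells of a type and less RNA per cell cannot be told apart.

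All 13 markers of lung and airway epithelium were higher, as were Cxcl17 and Cxcl15. They summed to 19588 FPKM in the Cre library and 4423 FPKM in the control library, with single genes between 6.38 and 12533 FPKM in the Cre library and between 0.248 and 3261 FPKM in the control library. Sftpc, a surfactant protein of alveolar cells, had 90.5 FPKM in the Cre library and 0.248 FPKM in the control library. The part of lung tissue in the values of Cxcl17 and Cxcl15 was not tested. The libraries also differed in sex-linked genes, with Xist at 93.2 FPKM in the Cre library and 0.379 FPKM in the control library, so sex and genotype cannot be told apart.

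The 12 macrophage and monocyte markers summed to 785 FPKM in the Cre library and 673 FPKM in the control library, with 1 higher (Cd14) and 1 lower (Cd68). Lyz2 alone had 495 FPKM in the Cre library and 349 FPKM in the control library, so the sums mostly reflect that gene. None of 9 dendritic cell markers or 6 neutrophil markers passed the size rule. Only 3 of the dendritic and 5 of the neutrophil markers had a mean of at least 1 FPKM. As with the members, a marker at 1 FPKM or less in the control library could not be called lower. The dendritic list holds Xcr1, itself a member, and had a median of -0.36, while the neutrophil list had -0.37. Of 9 B cell markers, Ebf1 was higher and Cd79b lower. Fibroblast markers had a median of 0.21 with 1 of 10 higher, and blood endothelium markers one of 0.47 with 0 of 10 higher. Lymphatic endothelium had a median of 0.42 with 1 of 6 higher, adipocytes 0.43 with 1 of 8, and smooth muscle and pericytes 0.72 with 3 of 9. Mast cell markers had a median of 1.07 with 5 of 8 higher. Working cardiomyocyte markers had a median of 1.03 with 4 of 8 higher, and pacemaker markers one of 0.23 with 1 of 8 higher. No marker in these last 8 lists, from fibroblasts on, was lower. Over all genes, 5.23% were higher and 8.96% lower. The medians of the B cell, macrophage, fibroblast and pacemaker lists turned negative with the tissue-marker centring.

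Many, but not all, genes that carry the signal from chemokine receptors were lower, as were 5 of the lymphocyte receptors. Of 30 G protein and effector genes 17 were lower and 0 were higher, with a median log2 ratio of -1.14, beside -0.02 for all genes. Over all genes, 8.96% were lower and 5.23% higher. The rest of the list passed in neither direction, and some of it had higher values in the Cre library. Coro1a, an actin regulator of leukocytes, had 8.28 FPKM in the Cre library and 326 FPKM in the control library. Rac2, the blood-cell form of the Rac switch, had 3.09 FPKM in the Cre library and 76.5 FPKM in the control library, and Rhoh had 0.343 FPKM in the Cre library and 27.4 FPKM in the control library. Gnai2, the inhibitory G protein subunit most used by leukocytes, had 69.0 FPKM in the Cre library and 115 FPKM in the control library, below the size rule. Many of these effectors are leukocyte genes, and the part of T cells in their values was not tested.

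Receptor desensitisation genes had 1 of 14 higher and 6 lower (median -0.37), beside 5.23% of all genes higher and 8.96% lower. Adrbk1 and Adrbk2 encode the kinases also called Grk2 and Grk3, which switch receptors off. Adrbk1 had 15.0 FPKM in the Cre library and 54.7 FPKM in the control library, while Adrbk2 had 23.5 FPKM in the Cre library and 7.81 FPKM in the control library. Rgs14 and Rgs10, which end G protein signals, had 1.09 and 9.99 FPKM in the Cre library, and 20.2 and 33.2 FPKM in the control library. Leukocyte adhesion partners had 0 of 18 higher and 5 lower (median -0.55). The integrin chains Itgal and Itgb2 had 2.42 and 11.2 FPKM in the Cre library, and 42.0 and 46.1 FPKM in the control library. Selplg, by which leukocytes roll on endothelium, had 2.74 FPKM in the Cre library and 38.7 FPKM in the control library.

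Neither of the other decoy receptors at 1 FPKM or more passed the size rule: Ccrl1 had 3.74 FPKM in the Cre library and 5.83 FPKM in the control library, and Ccrl2 had 5.68 FPKM in the Cre library and 4.53 FPKM in the control library. Of 4 ligands outside the name pattern 1 was lower, Cklf, at 3.14 FPKM in the Cre library and 7.94 FPKM in the control library. Pf4, a platelet and macrophage chemokine, had 51.1 FPKM in the Cre library and 41.1 FPKM in the control library, and Mif had 101 FPKM in the Cre library and 124 FPKM in the control library. Of 12 other migration receptors and their regulators 2 were lower, S1pr4 and Plxnd1, and 0 were higher. These small counts stand beside 8.96% of all genes lower and 5.23% higher.

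Dpp4, which trims and inactivates Cxcl12, was the 1 of 9 cleavage genes that was lower, at 11.7 FPKM in the Cre library and 30.7 FPKM in the control library. Mmp2, a matrix protease that also cleaves chemokines, was the 1 that was higher, at 79.1 FPKM in the Cre library and 37.4 FPKM in the control library. Among 12 genes of heparan sulphate, to which chemokines bind, 1 was higher (Sdc1, at 23.0 FPKM in the Cre library and 9.62 FPKM in the control library) and 0 were lower. Of 17 NF-kB factors and inducers 0 were higher and 1 was lower, Ltb, a lymphotoxin of lymphocytes, at 0.504 FPKM in the Cre library and 20.8 FPKM in the control library. Over all genes, 5.23% were higher and 8.96% lower, so 1 gene in lists this short is not read as a result about the list. Nfkbia, a target and inhibitor of NF-kB, had 43.8 FPKM in the Cre library and 78.4 FPKM in the control library.

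**Figure D5:**
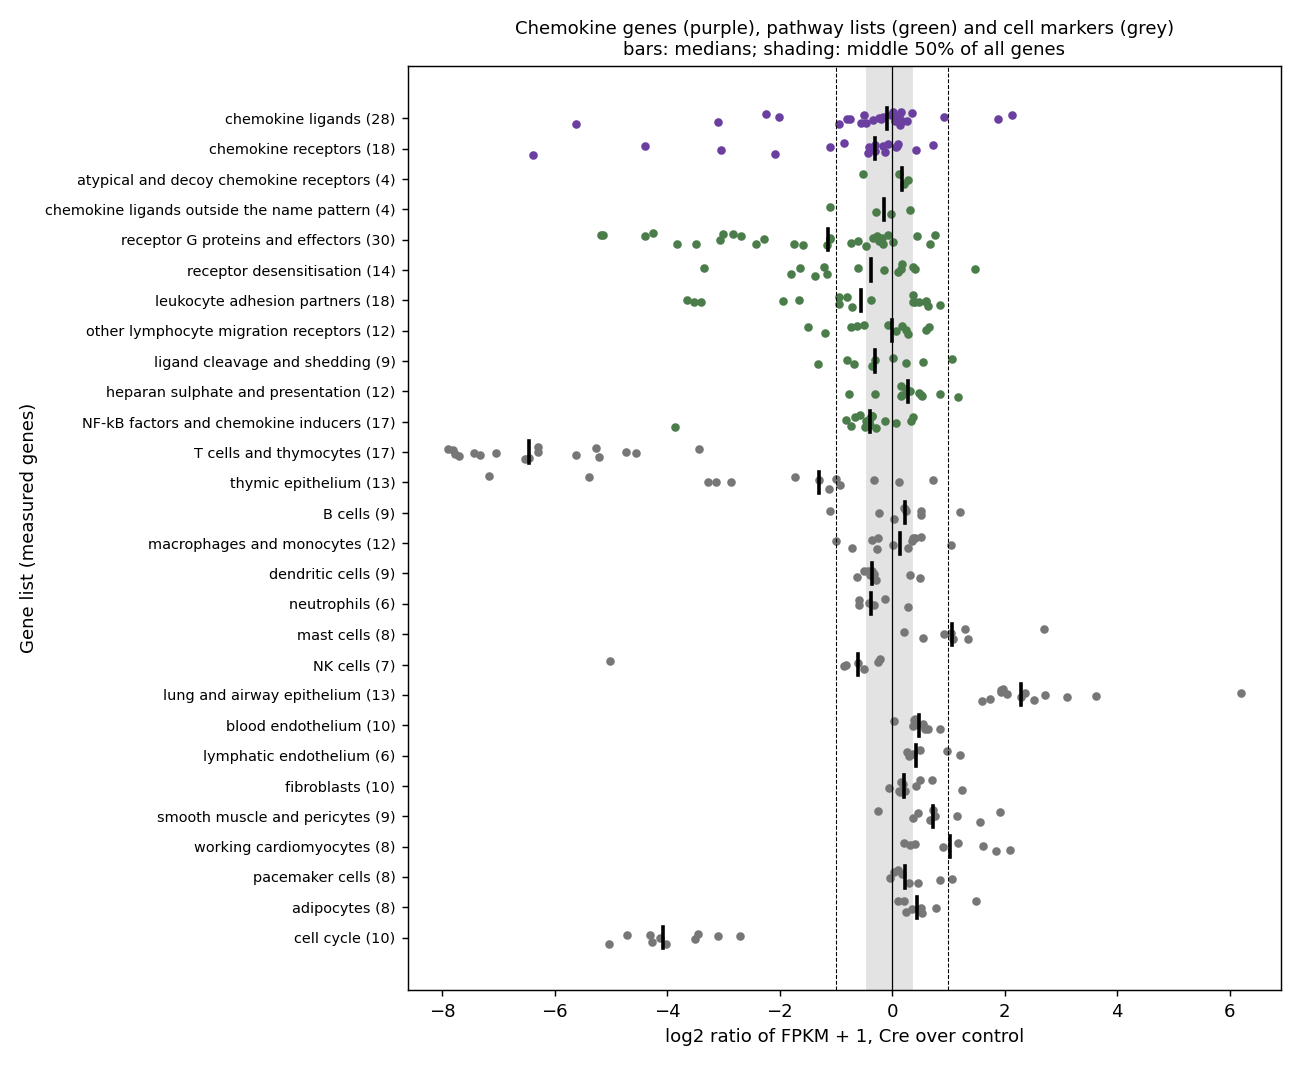
Log2 ratios of FPKM + 1, Cre over control, of each measured gene of the members (purple), 9 pathway lists (green) and 17 marker lists (grey), with the number of measured genes in brackets; bars are medians, the band is the middle 50% of all genes and dashed lines mark 2-fold. T cell markers lie lowest (median -6.46), lung and airway markers highest (2.29), and the members are spread between them.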

How the data were processed

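Poly-A RNA of 2 libraries was used, 1 from each genotype at day 6. Reads were processed with TopHat, Bowtie and Cufflinks on mm9, per the submitters' processing notes; no version, annotation, strand setting or scaling method is named in the labels. The authors deposited 1 FPKM value per gene and library, with a log2 fold change, a test statistic (a score), a p-value and a q-value, per the file headers. FPKM divides up each library, so abundant transcripts in one library lower its other values, and the depth behind each value is unknown. FPKM summed to 485189 in the Cre library and 497407 in the control library.

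Of 15967 rows, 2 without a completed comparison were left out, and 29 small-RNA genes were left out of the background, leaving 15936 genes. Log2 ratios of FPKM + 1 (pseudocount 1) were computed with Python 3.11.15 and pandas 2.3.3. A check with noise-free 4-fold changes planted in well-expressed genes tested the arithmetic only, not the reliability of low values. The size rule was 2-fold. By rule, all members, up to 4 genes of each of 9 pathway lists and defining genes of 17 marker lists were to be named; 3 of these genes are counted but not reported here by name. Genes named outside that rule were Arid1a, Hcn4, Xist, Gnai2, the thymic list genes that other cells also express, and genes that share a locus with a member. Members, lists, roles, pairs and motifs were chosen with earlier results of these data known. Alternatives were pseudocounts of 0.1 and 5, minimum means of 1 and 5 FPKM, size rules of 1.5-fold and 4-fold, an upper-quartile scaling, an equal sum (TPM) and, added after seeing the data, centring on 3 tissue marker lists. Loci are given in mm9 as the table lists them, and promoters in GRCm38.p6, by accession.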

Additional observations from a re-analysis of the deposited data

How the results depend on the processing

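No paired analysis was possible because there was 1 library per genotype, and for the same reason no library could be left out. Across 5 other pseudocounts and scalings, no member that passed the size rule changed sign; of 230 member values 213 kept their side of the rule, 13 newly passed it and 4 no longer did. Those 4 were Ccr7, Cxcl10, Cxcl15 and Cxcr6 with a pseudocount of 5. Ligands counted as higher numbered 1 in place of 2 with a minimum of 5 FPKM, a pseudocount of 5 or a 4-fold rule. Ligands counted as lower numbered 1 in place of 4 with a minimum of 5 FPKM and 7 with a 1.5-fold rule or the tissue-list centring, where Ccl8, Cxcl12 and Cxcl14 joined. Receptors counted as lower numbered 2 in place of 5 with a minimum of 5 FPKM and 3 with a pseudocount of 5, and 1 receptor, Ccr1, was higher with a 1.5-fold rule. The fewer calls under a minimum follow from fewer genes being counted. The other causes were not tested. Over all genes, 833 were higher and 1428 lower, so that 36.8% of calls were higher. The number higher became 449 with a minimum of 5 FPKM, 1797 with a pseudocount of 0.1 and 1427 with the same upper quartile (56.0% of calls higher). With a pseudocount of 5 these were 238 and 804, with a 1.5-fold rule 2396 and 3092, with a 4-fold rule 59 and 520, and with the tissue-list centring 334 and 3011 (9.99% higher). Depth is unknown, so values of weak members carry no counting interval.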
